A study of Homo sapiens with 3 samples.

Results

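The genes of chromosome 9 were followed across 3 RNA-seq libraries of a bile duct cancer cell line. Chromosome 9 genes were taken when the gene tables gave them status OK and at least 3 FPKM (sequenced fragments scaled to transcript length and library size) in all 3 libraries. The rule kept 380 genes of chromosome 9 out of 9645 genes that passed the same filter anywhere in the genome. For each gene and each pair of libraries, the log2 ratio of FPKM + 1 was taken and the median of all 9645 genes was subtracted, and this value is called the centred ratio. The 380 genes were compared in 3 stretches of the GRCh37 map, with limits at positions 35000000 and 125000000. The first stretch, before both limits, held 61 genes, the middle stretch 173 and the last stretch 146. The genes and stretches were chosen on these same ratios, so the ratios are given as a description with no test.

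KKU-213 is a cholangiocarcinoma cell line, and KKU-213L5 is a highly metastatic subline of it. L5 was the KKU-213L5 culture kept at 25 mM glucose, HG was parental KKU-213 at 25 mM glucose, and NG was parental KKU-213 at 5.6 mM glucose. All 3 cultures were kept for more than 5 passages in DMEM with 10% serum and 1% antibiotics. Each group was 1 poly(A)-selected, strand-specific library, so no difference has a replicate check, and L5 against NG differs in subline and glucose together. Of the 10 cholangiocyte markers, 6 were at 1 FPKM or more in every library, with TFF1 listed at 0, while hepatocyte, fibroblast, and leukocyte and endothelial markers had 0 of 6 genes each at that level. The tables correspond to about 68700000 fragments in L5, 76000000 in HG and 47100000 in NG, estimated from coverage and FPKM. The ± after a ratio is its counting error, 1 standard error from the deposited FPKM intervals, and it covers counting alone; its median over the 380 genes was 0.06 in HG against NG, 0.05 in L5 against HG and 0.06 in L5 against NG.

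The short arm of human chromosome 9 carries the CDKN2A, CDKN2B and MTAP locus, which is often deleted in biliary and many other cancers, and the PD-L1 and JAK2 genes. The long arm carries the TGF-beta receptor gene TGFBR1, the patched receptor gene PTCH1, and near its end ABL1, NOTCH1 and TSC1. Neighbouring genes often share their number of copies, which was not analysed here. In bulk RNA, a different number of cells with a transcript and a different amount per cell cannot be told apart.

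The level of the ratios differed on the sides of 2 places along the chromosome, and the promoters of the genes on each side of these places are shown to mark where they lie. ALDH1B1 and ANKRD18A lie on either side of the first place, and SLC2A8 and RPL12 on either side of the second. The sequences are the 250 bases before each gene's start, 5′ to 3′ on the gene's strand, from RefSeq on GRCh38.p14, a later map than the GRCh37 of the other positions. Capitals mark the GC box, the motif GGGCGG or its reverse complement CCGCCC.
ALDH1B1 (chr9:38392452-38392701, plus strand): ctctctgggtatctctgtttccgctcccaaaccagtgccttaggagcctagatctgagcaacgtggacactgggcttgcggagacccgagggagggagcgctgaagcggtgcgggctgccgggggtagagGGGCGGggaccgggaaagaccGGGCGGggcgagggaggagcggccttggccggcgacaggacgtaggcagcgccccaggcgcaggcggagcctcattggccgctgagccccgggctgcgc
ANKRD18A (chr9:38620597-38620846, minus strand): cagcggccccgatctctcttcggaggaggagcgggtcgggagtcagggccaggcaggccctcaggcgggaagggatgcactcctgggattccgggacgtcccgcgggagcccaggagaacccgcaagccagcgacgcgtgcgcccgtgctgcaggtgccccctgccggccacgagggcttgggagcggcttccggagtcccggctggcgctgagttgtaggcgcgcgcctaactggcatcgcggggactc
SLC2A8 (chr9:127396919-127397168, plus strand): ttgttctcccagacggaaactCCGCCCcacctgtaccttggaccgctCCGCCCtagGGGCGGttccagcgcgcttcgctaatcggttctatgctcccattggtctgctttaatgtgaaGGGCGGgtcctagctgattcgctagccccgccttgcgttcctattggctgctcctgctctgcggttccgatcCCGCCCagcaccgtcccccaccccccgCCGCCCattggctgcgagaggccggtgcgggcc
RPL12 (chr9:127451407-127451656, minus strand): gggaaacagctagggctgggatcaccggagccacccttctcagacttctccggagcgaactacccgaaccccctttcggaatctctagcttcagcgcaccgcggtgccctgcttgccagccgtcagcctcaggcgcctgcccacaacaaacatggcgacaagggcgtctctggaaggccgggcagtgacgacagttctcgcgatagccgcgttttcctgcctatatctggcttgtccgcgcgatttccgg
The ALDH1B1 window held 2 GC boxes and the SLC2A8 window 6, and the ANKRD18A and RPL12 windows held 0.

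In HG against NG, genes near the end of the long arm stood lower in HG. The 146 genes of the last stretch had a median centred ratio of -0.33, which is 0.793-fold, and 121 of them lay below 0, where 50% of all passing genes lie. Past -0.5 lay 38 of these 146 genes, against 7.06% of all passing genes, and past 0.5 lay 4, against 7.3%. The 61 genes of the first stretch had a median of 0.01 and the 173 genes of the middle stretch a median of -0.003. Past 0.5 lay 2 of the 61 and 10 of the 173 genes, and past -0.5 lay 3 and 9. Over the whole chromosome 66 of 380 genes lay past 0.5 in size, against 14.4% of all passing genes.

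In L5 against HG, genes along nearly the whole long arm stood higher in L5. The median was 0.32 in the middle stretch, which is 1.24-fold, and 0.29 in the last stretch, which is 1.22-fold, while in the first stretch it was 0.03. Above 0 lay 151 of the 173 genes of the middle stretch and 135 of the 146 genes of the last stretch, where 50% of all passing genes lie. Past 0.5 lay 33 of 173 and 24 of 146 genes, against 5.19% of all passing genes. Past -0.5 lay 0 of 173 and 2 of 146, against 3.68%. Over the whole chromosome 65 of 380 genes lay past 0.5 in size, against 8.88% of all passing genes.

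In L5 against NG, the middle of the chromosome stood higher in L5. The median was 0.32 in the middle stretch, which is 1.25-fold, with 146 of 173 genes above 0, where 50% of all passing genes lie. Past 0.5 lay 39 of the 173 genes, against 7.43% of all passing genes, and 1 lay past -0.5, against 6.02%. In the last stretch the median was -0.03, with 11 of 146 genes past 0.5 and 8 past -0.5, and in the first stretch it was 0.05. Over the whole chromosome 65 of 380 genes lay past 0.5 in size, against 13.5% of all passing genes. The 3 comparisons share libraries: HG stands in 2 of them and so does each of the others, so their values are set side by side and are not independent.

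All these ratios are relative to the median of all passing genes. On the scale of 46 spike-in sequences, the median of all passing genes itself stood at -0.47 in HG against NG, -0.42 in L5 against HG and -0.92 in L5 against NG. On that scale the middle stretch stood at -0.11 in L5 against HG and the last stretch at -0.13, so their direction turned. The distance of each stretch from the rest of the genes does not depend on the centring.

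The limits of the stretches were not where the level of the ratios stepped. The place that best split the chromosome, chosen after seeing the data as the one with the smallest summed distance of genes from the medians of their sides, lay between ALDH1B1 (start 38392661) and ANKRD18A (start 38540564) in L5 against HG. In HG against NG it lay between SLC2A8 (start 130159421) and RPL12 (start 130209953). In L5 against NG the best split of the genes after the first split fell again between SLC2A8 and RPL12. ALDH1B1, a mitochondrial aldehyde dehydrogenase, had 8.42 FPKM in L5, 10.4 in HG and 9.51 in NG. ANKRD18A, which has close copies on chromosome 9 that can share its reads, had 6.34 FPKM in L5, 4.60 in HG and 4.003 in NG. SLC2A8, the glucose transporter GLUT8, had 7.79 FPKM in L5, 8.03 in HG and 7.40 in NG. RPL12, a protein of the large ribosomal subunit, had 1524 FPKM in L5, 1454 in HG and 1968 in NG. The splits were placed on these same ratios, so the genes beside them describe each split and are no support for it. In L5 against HG, ALDH1B1 stood at -0.26 ± 0.05 and ANKRD18A at 0.40 ± 0.15. In HG against NG, SLC2A8 stood at 0.18 ± 0.15, within 2 counting errors of 0, and RPL12 at -0.36 ± 0.01.

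**Figure D1:**
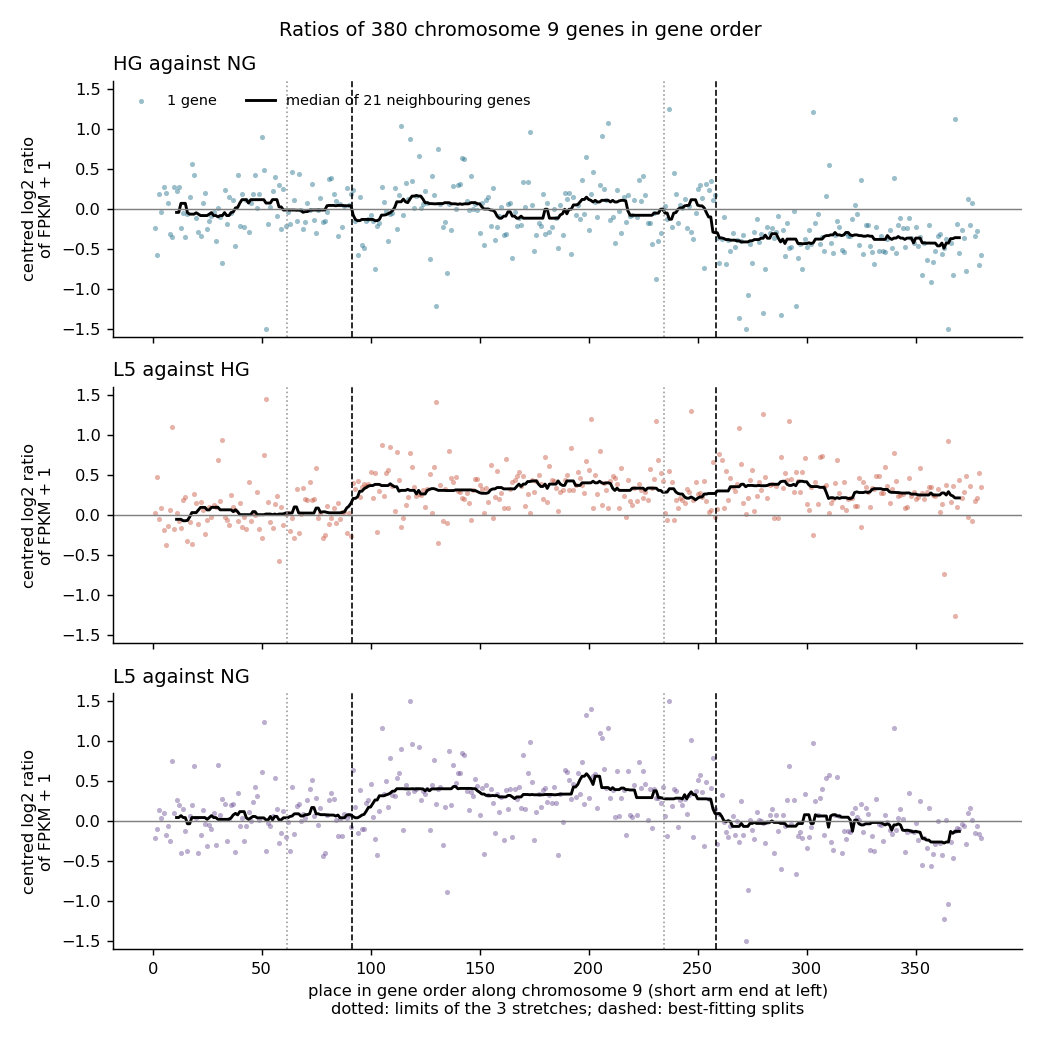
Centred log2 ratios of the 380 chromosome 9 genes (1 point each) in gene order from the short arm end, for each pair of libraries, with the median of 21 neighbouring genes as a line; points past ±1.5 are drawn at ±1.5. The line steps up at the first split in L5 against HG, and steps down at the second split in HG against NG and in L5 against NG.

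With these splits, the 91 genes up to 38.4 Mb had medians of 0.01 in HG against NG, 0.03 in L5 against HG and 0.05 in L5 against NG. The 167 genes between the splits had medians of 0.02, 0.33 and 0.36 in the same order, and the last 2 are 1.26-fold and 1.29-fold. The 122 genes after the second split had medians of -0.37, 0.31 and -0.07, and the first 2 are 0.772-fold and 1.24-fold. In this last segment 113 of 122 genes lay below 0 in HG against NG and 114 of 122 lay above 0 in L5 against HG. HG stood below both other libraries there, and L5 and NG stood close to each other. Between the splits HG and NG stood close and L5 stood above them, with 155 of 167 genes above 0 in L5 against HG and 145 of 167 in L5 against NG.

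Counted gene by gene, L5 had the highest centred level of the 3 libraries in 139 of the 167 genes between the splits (83.2%), against 3027 of all 9645 passing genes (31.4%). HG had the lowest centred level in 110 of the 122 genes after the second split (90.2%), against 3060 of 9645 (31.7%). The 30 genes of the middle stretch before the first split were close to the first stretch. Their medians were 0.01 in HG against NG, 0.03 in L5 against HG and 0.07 in L5 against NG. The 24 genes of the last stretch before the second split had 0.08, 0.20 and 0.31 in the same order, close to the middle of the chromosome in L5 against NG. The middle and the last stretch therefore each held genes of 2 kinds.

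**Figure D2:**
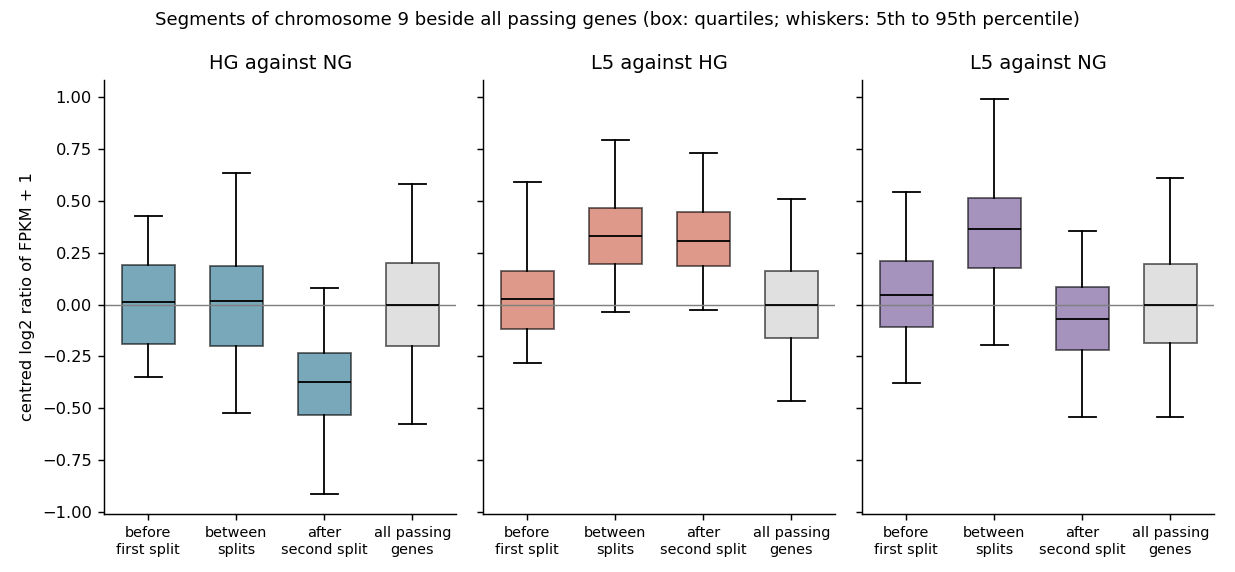
Centred log2 ratios of the genes before the first split (n = 91), between the splits (n = 167) and after the second split (n = 122), beside all 9645 passing genes; boxes are quartiles, the line is the median and whiskers run to the 5th and 95th percentiles. In HG against NG the whole box of the last segment lies below 0, and in L5 against HG the whole boxes of the 2 later segments lie above 0.

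Single genes varied within a segment. After the second split the quartiles in HG against NG were -0.53 and -0.23, against -0.20 and 0.20 for all passing genes, and the SD over the 122 genes was 0.41. Between the splits the quartiles in L5 against HG were 0.20 and 0.47, against -0.16 and 0.16 for all passing genes. The running median of 21 neighbouring genes in HG against NG was lowest at -0.49 over the genes AGPAT2 to TOR4A, starting at 139.6 to 140.2 Mb, where 1 of 21 genes lay above 0. In L5 against HG the running median was highest at 0.43 over NCBP1 to RNF20, starting at 100.4 to 104.3 Mb, where 21 of 21 genes lay above 0. In L5 against NG it was highest at 0.59 over TMEM38B to SLC31A2, starting at 108.5 to 115.9 Mb, again with 21 of 21 genes above 0.

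Other chromosomes held few bins with medians of this size in the same direction. Of 264 bins of 10 Mb with at least 10 passing genes on the other chromosomes and the mitochondrial genome, 0 had a median in HG against NG as low as the -0.37 of the segment after the second split. For L5 against HG 1 bin, on chromosome X, had a median as high as the 0.33 between the splits. In L5 against NG 7 bins, on chromosomes 1, 15 and X, had a median as high as the 0.36 between the splits. In HG against NG the 5th and 95th percentiles of these bins were -0.16 and 0.42, so bins at least as far from 0 on the high side were present on other chromosomes. The same percentiles in L5 against HG were -0.37 and 0.14.

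**Figure D3:**
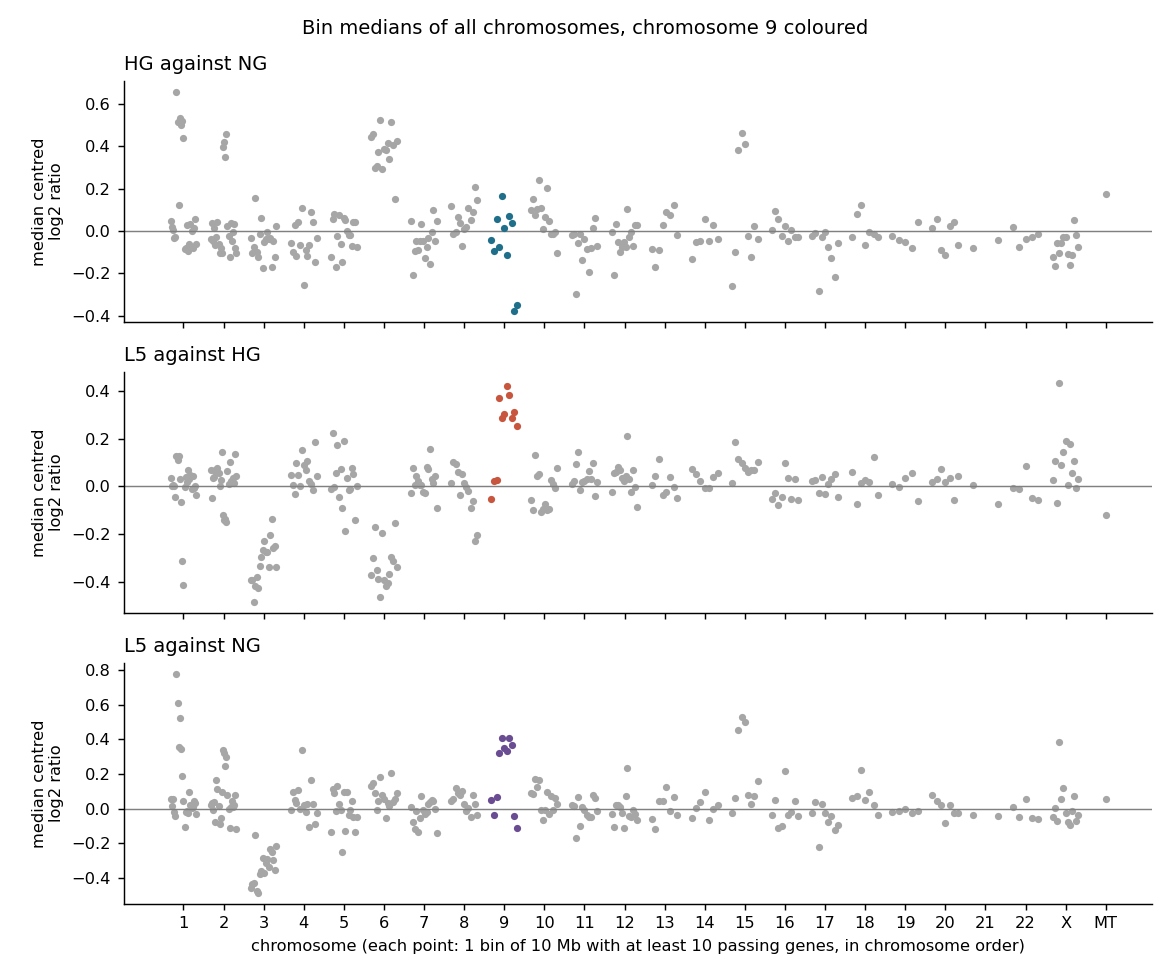
Median centred log2 ratio of each 10 Mb bin with at least 10 passing genes, by chromosome and in order along it, for each pair of libraries; chromosome 9 is coloured and the other chromosomes are grey. The 2 last bins of chromosome 9 are the lowest bins in HG against NG, and chromosome 9 bins are among the highest in L5 against HG.

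Genes too weakly expressed for the rule lay in the same directions after the second split. Between the splits they differed less in the comparisons with L5, but not in HG against NG. These were genes whose lowest FPKM in the 3 libraries was at least 1 and under 3, 2600 genes in the genome, centred on their own median. The 22 of them after the second split had a median of -0.27 in HG against NG, with 21 below 0, and 0.21 in L5 against HG, with 19 above 0. The 46 between the splits had 0.18 in L5 against HG, with 33 above 0, and 0.11 in L5 against NG, with 32 above 0. In HG against NG these 46 had -0.10, with 27 below 0, where the members between the splits had 0.02. The 28 before the first split had 0.01 in HG against NG, 0.08 in L5 against HG and 0.10 in L5 against NG, so in L5 against NG the segments before and after the first split were about level. These genes come from the same 3 libraries, and the lowest library alone set entry, so a gene could enter by being low in 1 of them.

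Single genes of the short arm stood apart from their neighbours. Positions of genes are GRCh37 spans from the gene tables. PRSS3 (chr9:33750515-33799230), which encodes the digestive protease mesotrypsin, had 15.4 FPKM in L5, 5.05 in HG and 21.5 in NG. Its ratio was -1.82 ± 0.11 in HG against NG and 1.45 ± 0.11 in L5 against HG, the lowest and highest of the 61 genes of the first stretch, so HG stood apart and L5 and NG stood nearer to each other. CD274 (chr9:5450503-5470566), which encodes the immune checkpoint ligand PD-L1, had 12.1 FPKM in L5, 5.12 in HG and 7.22 in NG. Its ratio was 1.11 ± 0.11 in L5 against HG and 0.76 ± 0.12 in L5 against NG, so L5 was the highest of the 3 libraries. SMARCA2, a catalytic subunit of the SWI/SNF chromatin remodelling complex, had 15.2 FPKM in L5, 10.7 in HG and 17.4 in NG, with -0.57 ± 0.06 in HG against NG. Of the 17 genes listed around JAK2 and CD274 on 9p24, 12 were members, and CD274 was the 1 of them past 0.5 in L5 against HG while SMARCA2 was the 1 past -0.5 in HG against NG. Their medians were 0.01 in HG against NG, -0.02 in L5 against HG and 0.02 in L5 against NG. JAK2, the cytokine receptor kinase, was below the rule's limit at 2.10 FPKM in L5, 1.36 in HG and 1.66 in NG.

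The 9p21 tumour suppressor locus was expressed in all 3 libraries. CDKN2A (chr9:21967751-21995300), which encodes the cell cycle inhibitor p16 and the p53 activator p14ARF, had 21.2 FPKM in L5, 18.8 in HG and 21.4 in NG, and its ratios were -0.10 ± 0.10 in HG against NG, 0.17 ± 0.09 in L5 against HG and 0.08 ± 0.10 in L5 against NG. Each of these ratios was within 2 counting errors of 0. The FPKM of CDKN2A are totals over its transcripts and do not tell p16 from p14ARF. CDKN2B (chr9:22002902-22009362), which encodes the related inhibitor p15, had 7.29 FPKM in L5, 3.34 in HG and 6.29 in NG, so HG was lowest, at -0.67 ± 0.11 against NG. Against HG, L5 stood at 0.95 ± 0.06. MTAP (chr9:21802542-21932738), which encodes the enzyme that salvages methionine and adenine, had 61.3 FPKM in L5, 38.03 in HG and 39.7 in NG. Its ratio was 0.68 ± 0.05 in L5 against HG and 0.70 ± 0.06 in L5 against NG, while HG and NG lay within counting error of each other at 0.01 ± 0.06. KLHL9, an adaptor of a ubiquitin ligase, had 8.11 FPKM in L5, 7.58 in HG and 10.95 in NG and stood at -0.40 ± 0.05 in HG against NG. Of the 10 genes listed at the locus 5 were members. In L5 against HG 5 of 5 lay above 0 and 2 past 0.5, CDKN2B and MTAP. Of all passing genes 50% lie above 0 and 5.19% past 0.5. Of the 91 genes before the first split 50 lay above 0 and 6 past 0.5.

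Genes at the ends of the range in the first stretch included regulators of transcription and RNA. NFIB, a transcription factor of the nuclear factor I family, had 5.85 FPKM in L5, 7.89 in HG and 5.31 in NG, with 0.57 ± 0.05 in HG against NG and -0.36 ± 0.04 in L5 against HG. TOPORS, a ubiquitin and SUMO ligase, had 9.42 FPKM in L5, 10.03 in HG and 7.66 in NG and stood at 0.43 ± 0.06 in HG against NG. PSIP1, the chromatin protein LEDGF, had 41.2 FPKM in L5, 45.2 in HG and 58.4 in NG, and RANBP6, an importin-like protein, had 9.76 FPKM in L5, 11.1 in HG and 14.1 in NG. Both were lowest in L5, at -0.40 ± 0.04 and -0.40 ± 0.05 against NG. DDX58, the viral RNA sensor RIG-I, had 5.54 FPKM in L5, 5.29 in HG and 8.10 in NG, so NG stood above the other libraries, at -0.46 ± 0.06 in HG against NG. RPP25L, a relative of an RNase P subunit, had 6.36 FPKM in L5, 10.04 in HG and 8.43 in NG and was the lowest of the stretch in L5 against HG at -0.57 ± 0.10. AK3, a mitochondrial adenylate kinase, had 19.6 FPKM in L5, 25.98 in HG and 23.7 in NG. UBAP1, a subunit of the ESCRT complex that sorts ubiquitinated proteins, had 17.3 FPKM in L5, 15.7 in HG and 12.4 in NG and stood at 0.54 ± 0.05 in L5 against NG. ANXA2P2, an annexin A2 pseudogene that shares reads with its parent gene and is uncertain for that reason, had 37.2 FPKM in L5, 21.8 in HG and 16.1 in NG. ANKRD18B, a close copy of ANKRD18A with the same limit, had 8.47 FPKM in L5, 10.6 in HG and 5.58 in NG.

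The listed protein quality control genes of 9p13 differed little between the libraries, while PRSS3, ANKRD18B, ANXA2P2 and RPP25L, named above, lie near them. Of 13 listed genes of protein quality control there, 12 were members, with 0 past 0.5 in size in HG against NG and in L5 against HG, and 1 past 0.5 in L5 against NG, UBAP1. VCP, the ATPase that extracts ubiquitinated proteins for degradation, had 82.7 FPKM in L5, 81.8 in HG and 88.8 in NG, and all 3 of its ratios, -0.04 ± 0.03 in HG against NG, 0.03 ± 0.03 in L5 against HG and -0.01 ± 0.03 in L5 against NG, were small. STOML2, a mitochondrial membrane scaffold, had 68.4 FPKM in L5, 83.9 in HG and 81.5 in NG and stood at -0.28 ± 0.04 in L5 against HG. GALT, an enzyme of galactose breakdown and the last member of the first stretch, had 5.29 FPKM in L5, 5.27 in HG and 6.67 in NG. The middle stretch began with VCP and FANCG, a DNA crosslink repair protein that had 9.46 FPKM in L5, 11.05 in HG and 13.5 in NG. TLN1, the integrin activator talin, had 11.1 FPKM in L5, 11.1 in HG and 11.8 in NG, and each of its ratios was smaller than its counting error. TPM2, a tropomyosin gene, was under the rule's limit at 0.789 FPKM in L5, 0.741 in HG and 1.06 in NG.

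**Figure D4:**
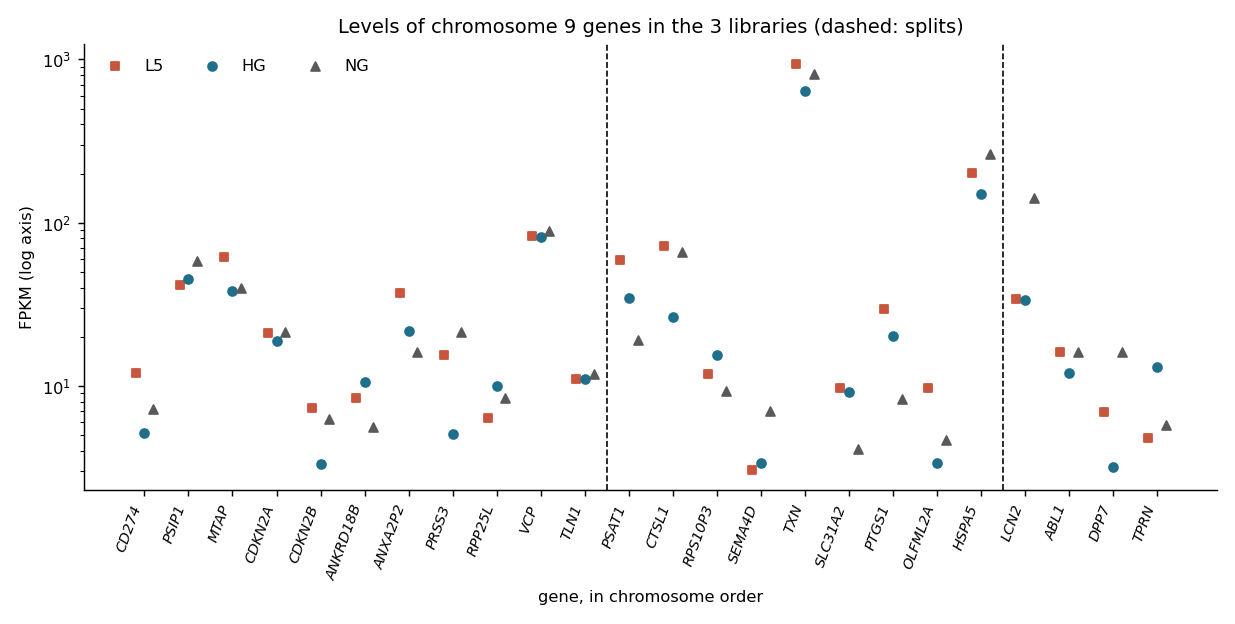
FPKM, on a log axis, of 24 chromosome 9 genes in chromosome order in L5 (squares), HG (circles) and NG (triangles), with the 2 splits as dashed lines. To the left of the first split VCP and TLN1 have nearly the same level in all libraries, and right of the second split LCN2, ABL1 and DPP7 are lower in HG than in NG.

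Between the splits, several genes with large ratios were highest in L5. PTGS1 (chr9:125132824-125157982), the cyclooxygenase 1 that starts prostaglandin synthesis, had 29.7 FPKM in L5, 20.1 in HG and 8.37 in NG, highest in L5 and lowest in NG. Its ratios were 1.25 ± 0.05 in HG against NG, 0.55 ± 0.03 in L5 against HG and 1.80 ± 0.05 in L5 against NG. PSAT1 (chr9:80912059-80945009), an enzyme of serine synthesis, had 59.2 FPKM in L5, 34.3 in HG and 19.2 in NG, with ratios of 0.88 ± 0.05 in HG against NG, 0.78 ± 0.03 in L5 against HG and 1.66 ± 0.05 in L5 against NG. AKAP2, an anchor for protein kinase A, had 42.4 FPKM in L5, 26.5 in HG and 17.4 in NG and reached 1.33 ± 0.05 in L5 against NG. These 3 genes had the same order, L5 above HG above NG. LPAR1, a lysophosphatidic acid receptor, had 46.02 FPKM in L5, 19.5 in HG and 17.97 in NG, so L5 stood above both parental cultures, at 1.21 ± 0.04 against HG and 1.40 ± 0.04 against NG. OLFML2A, an extracellular matrix protein, had 9.67 FPKM in L5, 3.38 in HG and 4.63 in NG, with 1.30 ± 0.05 in L5 against HG.

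Other genes between the splits had HG apart from the other libraries. CTSL1 (chr9:90340434-90346308), the lysosomal protease cathepsin L, had 71.9 FPKM in L5, 26.5 in HG and 65.9 in NG. It stood at -1.21 ± 0.05 in HG against NG, the lowest of the middle stretch, and at 1.42 ± 0.05 in L5 against HG, the highest of it. GSN, the actin-severing protein gelsolin, had 35.7 FPKM in L5, 15.4 in HG and 30.8 in NG, with -0.88 ± 0.05 and 1.17 ± 0.04 in the same order. For both genes L5 and NG were within 0.30 of each other on the log2 scale. KLF4, an epithelial transcription factor, had 51.5 FPKM in L5, 28.6 in HG and 45.2 in NG, also with HG lowest. HSPA5 (chr9:127997132-128003609), the main chaperone of the endoplasmic reticulum, had 201 FPKM in L5, 150.1 in HG and 265 in NG, and stood at -0.74 ± 0.01 in HG against NG, far from the median of 0.08 of the 24 genes of the last stretch before the second split.

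A further set of genes between the splits had NG apart. TGFBR1 (chr9:101866320-101916474), the kinase receptor of TGF-beta, had 18.2 FPKM in L5, 17.99 in HG and 9.29 in NG, with 0.96 ± 0.08 in HG against NG and 0.03 ± 0.06 in L5 against HG. SLC31A2, a copper transporter-like protein, had 9.71 FPKM in L5, 9.16 in HG and 4.08 in NG, with 1.07 ± 0.10 in HG against NG. PTBP3, a splicing regulator, had 76.1 FPKM in L5, 69.9 in HG and 38.8 in NG, with 0.91 ± 0.02 in HG against NG. GCNT1, which branches mucin-type glycans, had 6.07 FPKM in L5, 6.88 in HG and 3.04 in NG and lay close to the rule's limit in NG. SEMA4D, a semaphorin, had 3.05 FPKM in L5, 3.36 in HG and 6.98 in NG and stood the other way, at -0.80 ± 0.14 in HG against NG and -0.89 ± 0.16 in L5 against NG. TGFBR1, SLC31A2, PTBP3 and GCNT1 were thus lower in NG than in both 25 mM cultures, and SEMA4D higher. Also higher in NG were C9orf3, an aminopeptidase at 22.01 FPKM in L5, 21.7 in HG and 31.6 in NG, and NIPSNAP3A at 7.94 FPKM in L5, 7.67 in HG and 11.8 in NG. RPS10P3, a pseudogene of a ribosomal protein gene that can share reads with its parent, had 11.9 FPKM in L5, 15.5 in HG and 9.34 in NG.

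Abundant genes between the splits included ANXA1 and TXN, and both were highest in L5. ANXA1 (chr9:75766673-75785309), the phospholipid-binding protein annexin A1, had 1371 FPKM in L5, 767 in HG and 842 in NG, with 0.85 ± 0.01 in L5 against HG and 0.79 ± 0.01 in L5 against NG. TXN, the redox protein thioredoxin, had 934 FPKM in L5, 638 in HG and 809 in NG, with 0.56 ± 0.01 in L5 against HG. NDUFA8, a subunit of respiratory complex I, had 130.2 FPKM in L5, 91.1 in HG and 119 in NG. RBM18, an RNA-binding protein, had 18.2 FPKM in L5, 13.4 in HG and 14.2 in NG, and these 2 genes end the middle stretch. MRRF, the mitochondrial ribosome recycling factor and the first member of the last stretch, had 54.9 FPKM in L5, 54.3 in HG and 55.6 in NG, with no ratio above 0.08. PTCH1, the hedgehog receptor, was below the rule's limit at 1.57 FPKM in L5, 1.67 in HG and 2.32 in NG.

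After the second split, the genes with the lowest ratios in HG against NG included secreted and lysosomal proteins. DPP7 (chr9:140004994-140009629), a lysosomal dipeptidyl peptidase, had 6.88 FPKM in L5, 3.17 in HG and 16.2 in NG, with -1.97 ± 0.12 in HG against NG and 0.93 ± 0.15 in L5 against HG, so L5 lay between the parental cultures. LCN2 (chr9:130911350-130915734), the iron-siderophore binding protein lipocalin 2, had 33.9 FPKM in L5, 33.8 in HG and 141 in NG, with -1.96 ± 0.05 in HG against NG and -1.94 ± 0.05 in L5 against NG, so both 25 mM cultures were lower than NG and about equal. FAM102A had 14.4 FPKM in L5, 6.29 in HG and 18.7 in NG, with -1.36 ± 0.07 in HG against NG and 1.09 ± 0.05 in L5 against HG. LRRC8A, a subunit of the volume-regulated anion channel, had 36.4 FPKM in L5, 15.7 in HG and 23.7 in NG, with 1.18 ± 0.03 in L5 against HG. C9orf16 had 8.77 FPKM in L5, 7.49 in HG and 17.8 in NG, lower in both 25 mM cultures. TMSB4XP4, a thymosin beta 4 pseudogene that can share reads with its abundant parent, had 61.8 FPKM in L5, 25.3 in HG and 67.1 in NG.

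A few genes of this segment went against it. PTGES (chr9:132500610-132515326), the prostaglandin E synthase that acts after cyclooxygenase, had 35.2 FPKM in L5, 42.3 in HG and 18.6 in NG, with 1.22 ± 0.05 in HG against NG and 0.98 ± 0.06 in L5 against NG. TPRN, the sensory cell protein taperin, had 4.81 FPKM in L5, 13.02 in HG and 5.75 in NG, with 1.13 ± 0.12 in HG against NG and -1.26 ± 0.11 in L5 against HG, the lowest member of the chromosome in that comparison. ASS1, the urea cycle enzyme argininosuccinate synthase, had 38.2 FPKM in L5, 37.8 in HG and 26.9 in NG and is named after its values were seen. EEF1A1P5, an elongation factor pseudogene with an abundant parent, had 735 FPKM in L5, 820.2 in HG and 674 in NG. RNU6ATAC, a small nuclear RNA of the minor spliceosome, had 60.1 FPKM in L5, 34.9 in HG and 27.96 in NG with a counting error of 0.89 on its L5 against NG ratio of 1.17, so no difference was detectable at this depth. In HG against NG 9 of the 122 genes lay above 0 and 3 past 0.5, PTGES, TPRN and ASS1.

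The listed cancer genes at the end of the long arm that were members had HG lowest. ABL1 (chr9:133589333-133763062), the tyrosine kinase of the Philadelphia translocation, had 16.1 FPKM in L5, 12.1 in HG and 16.2 in NG, with ratios of -0.32 ± 0.09 in HG against NG, 0.40 ± 0.09 in L5 against HG and 0.08 ± 0.08 in L5 against NG. RXRA, the retinoid X receptor, had 19.3 FPKM in L5, 14.2 in HG and 22.4 in NG, with -0.54 ± 0.04 in HG against NG. NOTCH1 was below the rule's limit at 1.34 FPKM in L5, 1.38 in HG and 2.52 in NG, with L5 and HG about equal and NG highest, unlike its segment. Of the 16 listed tumour suppressor and signal genes of the long arm, 9 were members. The 5 after the second split lay below 0 in HG against NG in 5 of 5 and above 0 in L5 against HG in 5 of 5, with medians of -0.45 and 0.40, where all 122 genes of the segment had -0.37 and 0.31. Of all 9, 4 lay past -0.5 in HG against NG, where 7.06% of all passing genes lie, and 1, TGFBR1, past 0.5, where 7.3% lie. XPA, a nucleotide excision repair protein, had 4.49 FPKM in L5, 3.14 in HG and 5.69 in NG.

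Most chromosome 9 genes listed for the endoplasmic reticulum and Golgi apparatus were lowest in HG, and many of them lie after the second split. The list is broad and also holds GALT and GNE, which are cytosolic enzymes. Of 24 listed genes 22 were members, and 20 of 22 lay below 0 in HG against NG, against 50% of all passing genes, with 0 past 0.5 and 5 past -0.5, against 7.3% and 7.06%. Of the same 22, 22 lay above 0 in L5 against HG, with 5 past 0.5, against 50% and 5.19% of all passing genes. Their medians were -0.35 in HG against NG, 0.40 in L5 against HG and 0.01 in L5 against NG, against 0 for all passing genes. GOLGA2, a Golgi matrix protein, had 30.9 FPKM in L5, 20.8 in HG and 35.7 in NG. GOLM1, a Golgi membrane protein, had 72.8 FPKM in L5, 51.03 in HG and 83.7 in NG, and lies between the splits, as does HSPA5. SEC16A, a scaffold of the sites where vesicles leave the endoplasmic reticulum, had 22.8 FPKM in L5, 14.9 in HG and 20.3 in NG. Each of the 3 had HG lowest. The 12 members of this list after the second split had a median of -0.38 in HG against NG, where all 122 genes there had -0.37. The 6 between the splits had -0.35, where all 167 genes there had 0.02. The 4 before the first split were B4GALT1 at -0.29, CREB3 at -0.25, GALT at -0.21 and GNE at -0.30. All 4 lay below 0, with a median of -0.27, where all 91 genes there had 0.01. In L5 against HG, 114 of the 122 genes and 155 of the 167 genes lay above 0.

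Genes listed for actin, spectrin and cell junctions were higher in L5. The list is broad and also holds ANXA1 and TUBB4B, a tubulin. Of 17 listed genes 14 were members, and 14 of 14 lay above 0 in L5 against HG, with a median of 0.51 and 7 past 0.5, against 50% above 0 and 5.19% past 0.5 for all passing genes. In L5 against NG 13 of 14 lay above 0, with a median of 0.34 and 5 past 0.5, against 50% and 7.43%. The median in HG against NG was -0.11, with 2 past -0.5, against 7.06%. The 8 between the splits had medians of 0.54 in L5 against HG and 0.53 in L5 against NG, where all 167 genes of that segment had 0.33 and 0.36. CORO2A, a coronin that binds actin, had 8.77 FPKM in L5, 6.01 in HG and 4.84 in NG. EPB41L4B, a band 4.1 family protein of epithelial cells, had 12.4 FPKM in L5, 9.46 in HG and 7.56 in NG. Both were highest in L5 and lowest in NG, with 0.83 ± 0.05 and 0.74 ± 0.05 in L5 against NG.

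Enzymes of redox, amino acid and lipid metabolism differed by segment. Of 19 listed genes 16 were members. The 9 between the splits lay above 0 in L5 against HG in 9 of 9 and in L5 against NG in 9 of 9, with medians of 0.50 and 0.48. All 167 genes of that segment had 155 and 145 above 0, against 50% of all passing genes. The 6 after the second split had medians of -0.36 in HG against NG and -0.12 in L5 against NG. HSDL2, a short-chain dehydrogenase, had 43.1 FPKM in L5, 32.6 in HG and 28.8 in NG, with L5 highest. AGPAT2, which makes phosphatidic acid, had 11.1 FPKM in L5, 9.06 in HG and 17.8 in NG, with -0.83 ± 0.09 in HG against NG and -0.54 ± 0.08 in L5 against NG, so NG was highest.

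Nuclear genes had values near those of their segments. Of 23 listed genes of the nuclear pore, chromatin and RNA processing, 22 were members. The 11 after the second split lay below 0 in HG against NG in 11 of 11, with a median of -0.30 and 4 past -0.5, and above 0 in L5 against HG in 11 of 11, with a median of 0.33. All 122 genes of that segment had 113 below 0 and 30.3% past -0.5 in HG against NG, and 114 above 0 in L5 against HG, against 50%, 7.06% and 50% of all passing genes. The 8 between the splits lay above 0 in L5 against NG in 8 of 8, with a median of 0.40, and had a median of 0.05 in HG against NG. CDK9, the kinase of transcription elongation, had 23.998 FPKM in L5, 16.2 in HG and 28.1 in NG, and EHMT1, a histone H3 lysine 9 methyltransferase, had 15.1 FPKM in L5, 11.7 in HG and 18.9 in NG. Both lie after the second split and had HG lowest. PRPF4, a protein of the spliceosome between the splits, had 50.01 FPKM in L5, 38.1 in HG and 34.02 in NG and L5 highest.

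Genes listed as mitochondrial differed by segment, and ribosomal protein genes had a median of -0.37 in HG against NG. Of 22 genes listed as mitochondrial 20 were members. Their medians in HG against NG were 0.12 before the first split, -0.04 between the splits and -0.40 after the second split. The value before the first split is the ratio of ACO1, a cytosolic aconitase that the list also holds. SURF1, an assembly factor of cytochrome oxidase, had 20.4 FPKM in L5, 16.3 in HG and 28.4 in NG, with -0.69 ± 0.08 in HG against NG. SLC25A25, a mitochondrial ATP-Mg carrier, had 7.99 FPKM in L5, 4.81 in HG and 7.06 in NG, with 0.64 ± 0.05 in L5 against HG. AUH, an enzyme of leucine breakdown, had 14.6 FPKM in L5, 10.4 in HG and 13.4 in NG. All 4 listed ribosomal protein genes were members and lay below 0 in HG against NG and in L5 against NG. Of all passing genes, 50% lie below 0 in each comparison. RPL12 and RPL7A lie after the second split, where 113 of 122 genes lay below 0 in HG against NG. The median of that segment in HG against NG was -0.37, and in L5 against NG 74 of its 122 genes lay below 0. RPL7A had 1667 FPKM in L5, 1327 in HG and 2022 in NG, RPL35 had 1709.6 FPKM in L5, 1516 in HG and 2077 in NG and RPS6 had 1077 FPKM in L5, 1103 in HG and 1230.0 in NG. RPS6 lies on the short arm and stood at -0.08 ± 0.01 in HG against NG. RPL35 lies between the splits and stood at -0.38 in that comparison, where all 167 genes there had a median of 0.02. RPL7A lies after the second split and stood at -0.53 ± 0.01.

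The genes after the second split were richer in G and C than the rest. The median GC content of their transcripts was 57.8%, against 43.7% between the splits, 46.03% before the first split and 46.7% over all passing genes. Their median transcript length was 2768 nt, against 3646 nt between the splits and 3233 nt over all passing genes. The ratios were compared with those of 1942 genes on other chromosomes with transcript GC in the segment's interquartile range, 52.9% to 61.3%. These genes had medians of -0.04 in HG against NG, 0.00 in L5 against HG and -0.03 in L5 against NG. With a trend of the ratio on GC, level and length removed over all passing genes, a setting chosen with the values in view, the median of the last stretch was -0.30 in HG against NG and 0.29 in L5 against HG. Median FPKM after the second split was 19.4 in L5, 15.3 in HG and 22.1 in NG, and between the splits it was 20.5 in L5, 16.2 in HG and 16.9 in NG.

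Promoters of the 3 segments held common motifs in like shares. The window was 300 bases, 250 before to 50 after the start, both strands were searched, and RefSeq windows matched 72 genes before the first split, 140 between the splits and 103 after the second split. The GC box GGGCGG was in 78.6% of the windows after the second split, 80.0% between the splits and 79.2% before the first split, against 72.0% for all passing genes and 44.6% for all 27305 windows. CCAAT was in 37.9%, 38.6% and 33.3% in the same order, against 38.1% and 35.7%. TATAAA was in 5.83%, 3.57% and 5.56%, against 5.44% and 12.0%. A match is a description of letters and not a binding site.

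The filter left most chromosome 9 genes out. The tables listed 2292 genes on chromosome 9, of which 1840 were under 3 FPKM in every library, 1023 of them listed at 0 in all 3. Another 46 reached 3 FPKM in 1 or 2 libraries, and 26 lacked status OK. The nearest genes outside were TNFSF15, ZDHHC21 and NAIF1, with lowest levels of 2.80 FPKM in HG, 2.95 in L5 and 2.97 in NG. The nearest inside were ZNF484, GCNT1 and SEMA4D, with lowest levels of 3.03 FPKM in NG, 3.04 in NG and 3.05 in L5. Of the 380 members, 358 were annotated as protein-coding in GENCODE 29.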

How the data were processed

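RNA was poly(A)-selected and sequenced as pairs of 100 bp reads, per the labels. BWA, TopHat, Cufflinks and GRCh37 are named in the submitters' processing notes; versions are not given in the sources used here. Per the file headers, the deposited gene and isoform tables give FPKM with interval bounds and, for isoforms, coverage. The authors' FPKM values were used as deposited, and their intervals, taken as 2 SD on each side and rescaled to the listed FPKM, gave the counting errors. They held the listed FPKM for 82.1% of members in L5, 83.4% in HG and 82.9% in NG, so these errors are approximate. Deposited coverage gave the estimated fragment totals, which limit precision for low genes.

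Ratios, medians, counts and splits were computed with Python 3.11.15, pandas 2.3.3, numpy 2.4.6 and matplotlib 3.10.9, and the code was tested on simulated data. Spike-ins were left out of the genes. Members, lists and named genes were chosen with earlier results of these data known. Named were the 3 highest and 3 lowest ratios per stretch and comparison, up to 4 genes per list, a set of cancer genes, and members nearest each limit; some of these are not reported here. With 1 library per group no test was made. Alternatives changed the pseudocount, the FPKM minimum, the centring, the limits, gene identity and isoform sums; best splits, the GC trend and protein-coding genes alone were added after seeing the data.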

Additional observations from a re-analysis of the deposited data

How the results depend on the processing

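Of 195 alternative values, 166 stayed close to the values reported, 26 moved and 3 turned direction. With spike-in centring, which shifts every gene alike, the medians in HG against NG were -0.45 in the first stretch, -0.47 in the middle stretch and -0.80 in the last stretch. Those in L5 against HG were -0.40, -0.11 and -0.13, and in L5 against NG -0.87, -0.59 and -0.94. The numbers of genes past 0.5 in size, 66 in HG against NG and 65 in L5 against NG as reported, were 232 and 306. With no centring, the medians were -0.078 in the middle and -0.41 in the last stretch in HG against NG, and 0.23 and -0.12 in L5 against NG. With a pseudocount of 5, the median of the last stretch in HG against NG was -0.27, those of the middle stretch were 0.25 in L5 against HG and 0.26 in L5 against NG, and 36 genes, in place of 65, lay past 0.5 in L5 against HG. With no FPKM minimum, the median of the last stretch was -0.19 in HG against NG and 0.14 in L5 against HG, and that of the middle stretch was 0.051 in L5 against HG and 0.031 in L5 against NG. The numbers past 0.5 were then 150 in HG against NG, 112 in L5 against HG and 119 in L5 against NG, and with at least 10 FPKM, which tests fewer genes, 40, 36 and 33. Without a minimum many genes near 0 FPKM enter, whose ratios of FPKM + 1 lie near 0. No paired analysis was possible because each group had 1 library, and for the same reason no replicate could be left out. The single libraries limit every value: the differences cannot be told apart from differences between cultures.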

Other observations

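A further 46 chromosome 9 genes reached 3 FPKM in 1 or 2 libraries and were outside the rule. The following were chosen after their values were seen. TLR4, the receptor for bacterial lipopolysaccharide, had 3.52 FPKM in L5, 0.315 in HG and 1.44 in NG. TLE4, a corepressor of the Groucho family, had 3.81 FPKM in L5, 1.35 in HG and 5.13 in NG, so HG was lowest for both. GARNL3, a protein with a GTPase-activating domain, had 0.869 FPKM in L5, 1.26 in HG and 6.53 in NG, and EGFL7, a secreted EGF-like protein, had 1.30 FPKM in L5, 0.337 in HG and 3.43 in NG. DNM1, the membrane-severing GTPase dynamin 1, had 1.41 FPKM in L5, 1.47 in HG and 4.33 in NG. These 3 were highest in NG. TRAF1, an adaptor of TNF receptors, had 3.44 FPKM in L5, 3.63 in HG and 0.927 in NG, and KLF9, a zinc finger transcription factor, had 4.46 FPKM in L5, 3.05 in HG and 1.67 in NG, both lowest in NG. LURAP1L had 3.25 FPKM in L5, 0.954 in HG and 0.966 in NG, highest in L5.

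Of the 25 such genes of the middle stretch, 11 lay past 0.5 and 0 past -0.5 in L5 against HG. In HG against NG the same counts were 7 and 9, and in L5 against NG 9 and 2. Of the 12 of the last stretch, 0 lay past 0.5 and 6 past -0.5 in HG against NG. In L5 against HG these counts were 3 and 0, and in L5 against NG 2 and 4. The shares over all such genes of the genome are not given here, so the counts have no background beside them. These genes entered through the library in which they were high, so the counts describe them and are no support. Small RNAs SCARNA8, SNORA65 and SNORA84 were listed at 0 in at least 1 library, and poly(A) selection does not measure them evenly.

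At the CDKN2A locus the isoform tables gave 2 transcripts nearly all of the gene's FPKM. ENST00000361570 had 11.1 FPKM in L5, 9.07 in HG and 10.6 in NG, and ENST00000578845 had 8.35 in L5, 8.98 in HG and 9.25 in NG. ENST00000304494 had at most 0.254 FPKM, in NG. Which of these transcripts code for p16 and which for p14ARF was not tested, so expression of p16 itself is not shown.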
